A study of Mus musculus with 4 samples.

Results

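Fibrillar collagens I, III and V are covered here by the 5 genes Col1a1, Col1a2, Col3a1, Col5a1 and Col5a2, which were taken by symbol from all 4 count matrices and make up 5 of the 32286 genes listed there. Their UMIs, which are single captured mRNA molecules, were described in every library and in groups of cells that were set by genes other than the 5 members. Collagen I UMIs lay mostly in a few cells high in osteocalcin, its 2 chain genes were unequal in cartilage cells, and collagen V was spread over cartilage and bone. Collagen III was rare, with 50% of its UMIs in at most 7 cells of a library.

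Single-cell RNA-sequencing was performed by the study on tdTom+ cells sorted from vertebrae T11 to L2 of mice, with 1 library for each of 4 conditions. The libraries labelled mutant came from Prss56Cre/Cre;R26tdTom/tdTom; Nf1fl/fl mice at 3 months and at 12–16 months, in which both copies of Nf1, a brake on RAS signaling, are removed in cells that once expressed Prss56 and in their descendants. Those labelled control came from Prss56Cre/+;R26tdTom/tdTom;Nf1+/+ mice at the same ages. The 3-month libraries are called younger and the 12–16-month libraries older, and values are given in the order younger control, younger mutant, older control and older mutant, as labelled. All 4 libraries thus carry the tdTomato reporter on both alleles. The 2 genotypes also differ in the number of Cre alleles, so that the effect of Nf1 loss and that of the second Cre allele cannot be told apart. Vertebrae with visible tdTom signal were selected and digested with collagenase and dispase, and dead cells and cells stained for CD11b, CD31 or CD45 were discarded at the sort. How many animals went into each library is not given in the sources used here.

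Fibrillar collagens are made of 3 chains wound into a rope, and the ropes line up into the fibrils that give bone, tendon, skin and vessel walls their tensile strength. Collagen I, the main protein of bone matrix, is usually built from a pair of α1(I) chains, encoded by Col1a1, and a single α2(I) chain, encoded by Col1a2. Collagen III, a homotrimer of the Col3a1 product, is typical of vessel walls and soft connective tissue, and collagen V, with chains from Col5a1 and Col5a2, sits inside collagen I fibrils and sets their number and width. Hyaline cartilage, in contrast, is built on collagen II, the product of Col2a1.

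What the 5 chains have in common can be read from their coding sequence, in which a glycine codon opens each triplet of codons. In the longest unbroken run of such triplets, Col1a1 held 338 triplets at codons 168 to 1181 of 1453, Col1a2 held 339 at codons 97 to 1113 of 1372, Col3a1 held 344 at codons 164 to 1195 of 1464, Col5a1 held 338 at codons 559 to 1572 of 1838 and Col5a2 held 339 at codons 211 to 1227 of 1497. The runs differ by at most a few triplets, and the stretch in front of the run is longest in Col5a1. Proline codons, whose products stiffen the helix, filled from 29.1% (Col3a1) to 38.2% (Col5a1) of the positions after glycine and from 27.7% (Col1a2) to 41.6% (Col3a1) of the positions after that. The first 30 codons of each run are shown 5′ to 3′, from the GENCODE transcripts of GRCm38, because this repeat is the feature that makes the 5 genes a family. Capitals mark the first 2 bases of the glycine codon that opens each triplet, and glycine codons at other positions are in lower case.
Col1a1: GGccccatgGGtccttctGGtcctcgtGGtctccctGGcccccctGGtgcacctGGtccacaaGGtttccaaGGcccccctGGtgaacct
Col1a2: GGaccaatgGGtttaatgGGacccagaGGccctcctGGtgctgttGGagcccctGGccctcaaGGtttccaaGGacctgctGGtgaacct
Col3a1: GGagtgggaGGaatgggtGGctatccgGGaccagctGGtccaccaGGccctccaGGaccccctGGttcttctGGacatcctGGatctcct
Col5a1: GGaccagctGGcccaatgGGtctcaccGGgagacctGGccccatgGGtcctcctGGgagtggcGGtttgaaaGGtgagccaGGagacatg
Col5a2: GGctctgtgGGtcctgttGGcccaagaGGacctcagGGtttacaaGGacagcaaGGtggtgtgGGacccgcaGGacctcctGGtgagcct

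On GRCm38, which is the build of the files (mm10), Col1a1 (ENSMUSG00000001506) lies at chr11:94936224-94953042 on the plus strand, Col1a2 (ENSMUSG00000029661) at chr6:4504814-4541544 on the plus strand, Col3a1 (ENSMUSG00000026043) at chr1:45311538-45349706 on the plus strand, Col5a1 (ENSMUSG00000026837) at chr2:27886425-28039514 on the plus strand and Col5a2 (ENSMUSG00000026042) at chr1:45374321-45503282 on the minus strand. They have from 51 exons (Col1a1 and Col3a1) to 66 (Col5a1). Col3a1 and Col5a2 are neighbors, with their 3′ ends facing across 24614 bases and 0 protein-coding genes between them.

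RefSeq promoter sequences (GRCm38.p6) were held for Col1a2, Col3a1 and Col5a1, and the 150 bases before each start are shown because the UMIs of these 3 genes lay in different groups of cells. A set of short motifs, named with their matches, was searched on both strands. Matches are in capitals and do not overlap.
Col1a2, chr6:4505468-4505617, plus strand: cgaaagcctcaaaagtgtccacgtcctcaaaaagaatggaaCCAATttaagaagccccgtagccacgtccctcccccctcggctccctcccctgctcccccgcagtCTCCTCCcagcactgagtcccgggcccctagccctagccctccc
Col3a1, chr1:45311388-45311537, plus strand: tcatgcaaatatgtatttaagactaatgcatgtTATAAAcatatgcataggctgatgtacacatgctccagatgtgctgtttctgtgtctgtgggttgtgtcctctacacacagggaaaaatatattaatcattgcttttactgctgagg
Col5a1, chr2:27886275-27886424, plus strand: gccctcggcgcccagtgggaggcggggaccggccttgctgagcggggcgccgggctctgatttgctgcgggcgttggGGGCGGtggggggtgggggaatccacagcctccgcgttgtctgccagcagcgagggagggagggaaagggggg
The G and C content was 62.7% for Col1a2, 37.3% for Col3a1 and 74.7% for Col5a1. The window of Col1a2 held CCAAT, which is in 24.5% of all 32851 promoter windows of this length, and CTCCTCC, which is in 10.8%. That of Col3a1 held TATAAA, found in 7.57% of the windows, and that of Col5a1 held GGGCGG, found in 28.6%. TGTGGT, the core letters bound by RUNX factors, is in 8.40% of the windows and was in none of these 3. The start that RefSeq gives for Col1a2 lies inside the longer GENCODE gene, and a match describes letters only.

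The files held 2172 barcodes, of which 1757 passed as cells (over 750 UMIs, over 500 genes and a mitochondrial share under 7%), and 0 barcodes were shared between libraries. The libraries held 717, 484, 135 and 421 of these cells with 9429264, 7287981, 2154537 and 4398951 UMIs. Nf1 was at 131, 149.7, 147 and 125 CPM (UMIs per 1000000 UMIs of the group), but tags from the 3′ end of the mRNA do not show whether the deleted part is missing, so the labels could not be checked this way. Cartilage cells (at least 1 Sox9 and at least 3 Acan UMIs) numbered 562, 377, 89 and 258, bone/stroma cells (at most 2 Acan and at least 1 Runx2 UMIs) 45, 39, 27 and 83, and mural cells (at least 3 UMIs of Rgs5 and Myh11 and no Sox9) 10, 19, 3 and 25, of which 2, 0, 1 and 6 were also in the bone/stroma group. The summed level of 6 cartilage markers lay between 14170 and 17366 CPM in the cartilage cells, with 0 markers missing, and that of 6 mural markers between 19916 and 40565 CPM in the mural cells. The cartilage list holds Sox9 and Acan and the mural list Rgs5 and Myh11, which also set these groups. The bone and marrow stroma list below holds Runx2, which sets its group, and Bglap, Bglap2 and Cxcl12, which set groups within it. Part of these sums was thus fixed by the choice of cells. For bone/stroma cells the 8 bone and marrow stroma markers summed to 47545, 5251, 51850 and 26158 CPM, and the 5 immune markers to 6.33, 5788, 902.5 and 2582 CPM. The 3-month bone/stroma cells labelled mutant thus had the lowest bone marker level and the highest immune marker level, and 23 of these 39 cells had a UMI of Ptprc, the gene of CD45, against 1 of 45 in the younger control-labelled library, 2 of 27 in the older control-labelled one and 7 of 83 in the older mutant-labelled one. With 1 library per condition, no test between conditions was possible: all intervals are exact 95% intervals for counting error only, and none covers the spread between animals.

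Collagen I UMIs were concentrated in bone/stroma cells, and within these in the cells with at least 10 UMIs of Bglap and Bglap2, the osteocalcin genes of mature osteoblasts. Col1a1 was at 49203, 5674, 100230 and 29824 CPM in bone/stroma cells. In cartilage cells it was at 52.9, 1.71, 195 and 12.6 CPM, so that bone/stroma cells were 930-fold (846–1024), 3317-fold, 514-fold and 2372-fold higher. Its lowest level in bone/stroma cells was above its highest in cartilage cells.
Col1a2 was at 33089, 2673, 48704 and 19014 CPM in bone/stroma cells and at 271, 126, 255 and 148 CPM in cartilage cells, which made a smaller ratio of 122-fold (117–128), 21.1-fold, 191-fold and 128-fold. Every member UMI stands for 1 molecule whatever the length of its mRNA, but capture may differ between genes, so that levels of different members are compared with this reserve.

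**Figure D1:**
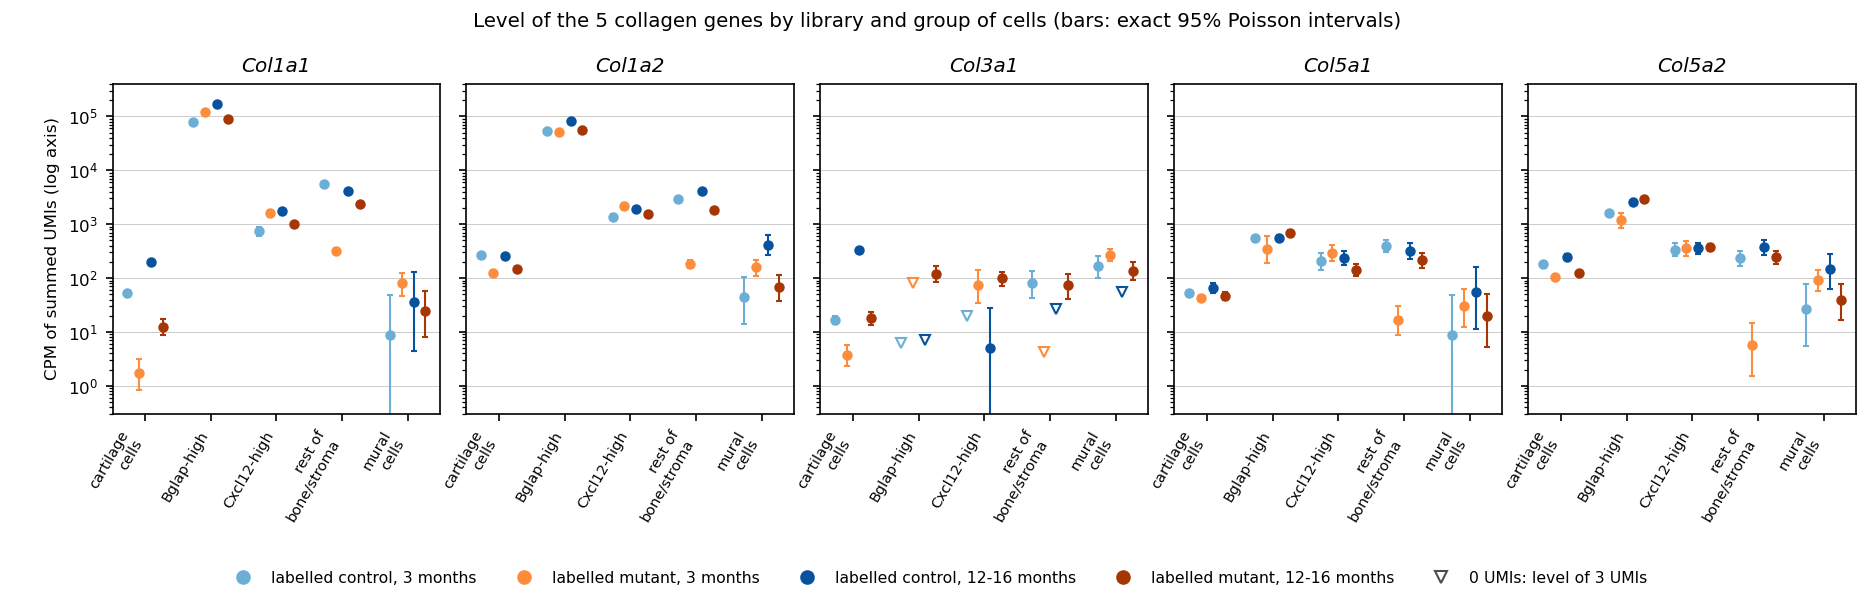
CPM of summed UMIs (log axis) of each of the 5 collagen genes in cartilage cells, Bglap-high, Cxcl12-high and other bone/stroma cells, and mural cells, with 1 point per library and exact 95% Poisson intervals as bars; open triangles mark groups with 0 UMIs at the level that 3 UMIs would give, and bars that reach the lower edge go on below it. The points for Col1a1 lie between 1.71 and 195 CPM in cartilage cells and between 80155 and 172387 CPM in Bglap-high cells, while those of Col5a1 lie between 42.1 and 685 CPM over both groups.

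Bglap-high cells numbered 18, 2, 11 and 14. They were 45 of 1757 cells and held 92.2%, 90.9%, 98.4% and 96.4% of all Col1a1 UMIs of their library. Col1a1 was at 80155, 121342, 172387 and 88635 CPM in them, which means that from 8.02% to 17.2% of all their captured molecules came from this single gene.
Few cells set these totals. The 10 highest cells of each library held 94.7%, 99.7%, 98.4% and 97.9% of the Col1a1 UMIs, and 50% of them lay in 3, 1, 2 and 3 cells. The highest cell of the younger control-labelled library had 8848 Col1a1 and 5837 Col1a2 among 67181 UMIs, together with 60 Col5a1, 172 Col5a2 and 0 Col3a1. In the older control-labelled library the highest cell had 24720 Col1a1 and 11071 Col1a2 among 132228 UMIs. Single osteoblast-like cells of this kind carry the library's level, and 1 cell with 4455 Col1a1 and 1879 Col1a2 among 23225 UMIs held nearly all of the Col1a1 that was found in the younger mutant-labelled library (4920 UMIs). That cell was called a doublet by Scrublet.

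Bone/stroma cells with at least 10 UMIs of Cxcl12 and fewer osteocalcin UMIs, which are marrow stromal cells by this marker, had far less collagen I. Their Col1a1 level was 746 (616–895), 1597 (1378–1841), 1754 (1574–1948) and 1009 (918–1107) CPM over 12, 10, 10 and 45 cells, and their Col1a2 level was 1375, 2143, 1911 and 1520 CPM. Bglap-high cells were above them by 107-fold (89.5–130), 98.3-fold and 87.8-fold for Col1a1 in the 3 libraries with at least 5 cells of each kind, and by 39.2-fold, 43.3-fold and 36.2-fold for Col1a2. The gap was smaller for Col5a1, at 2.63-fold, 2.32-fold and 4.79-fold, and for Col5a2, at 4.72-fold, 7.32-fold and 7.84-fold. All 12, 10, 10 and 45 Cxcl12-high cells had a UMI of Col1a2, whereas 8 of 12, 7 of 10, 10 of 10 and 40 of 45 had one of Col1a1.

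The UMIs of the 2 collagen I chains stood in different ratios in different cells. In Bglap-high cells there were 1.49, 2.33, 2.08 and 1.61 Col1a1 UMIs per Col1a2 UMI. Cxcl12-high cells had 0.542 (0.428–0.684), 0.745 (0.614–0.903), 0.918 (0.791–1.06) and 0.664 (0.588–0.749), below 1 in every library, with an interval that reached 1 in the older control-labelled library.
In cartilage cells the ratio was 0.196 (0.176–0.217), 0.0135 (0.00646–0.0250), 0.763 (0.646–0.901) and 0.0849 (0.0587–0.119). There were thus 5.11, 73.9, 1.31 and 11.8 Col1a2 UMIs for each one of Col1a1. Among the 562 cartilage cells of the younger control-labelled library, 302 had Col1a2 without Col1a1, 41 had both, 15 had only Col1a1 and 204 had neither. The 377 cells of the younger mutant-labelled library gave 139, 8, 2 and 228 in this order, the 89 cells of the older control-labelled library 34, 30, 11 and 14, and the 258 cells of the older mutant-labelled library 98, 10, 16 and 134. Col1a2 without Col1a1 was found in 4 of 45, 5 of 39, 0 of 27 and 5 of 83 bone/stroma cells. The Spearman correlation over cells of both genes, each as a share of the cell's UMIs and given as a description, was 0.918, 0.852, 0.928 and 0.799 in the bone/stroma cells (n = 45, 39, 27 and 83 cells) and from -0.00990 to 0.140 in the cartilage cells (n = 258 and 562 at these ends). Cells of a library share its depth and free RNA.

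**Figure D2:**
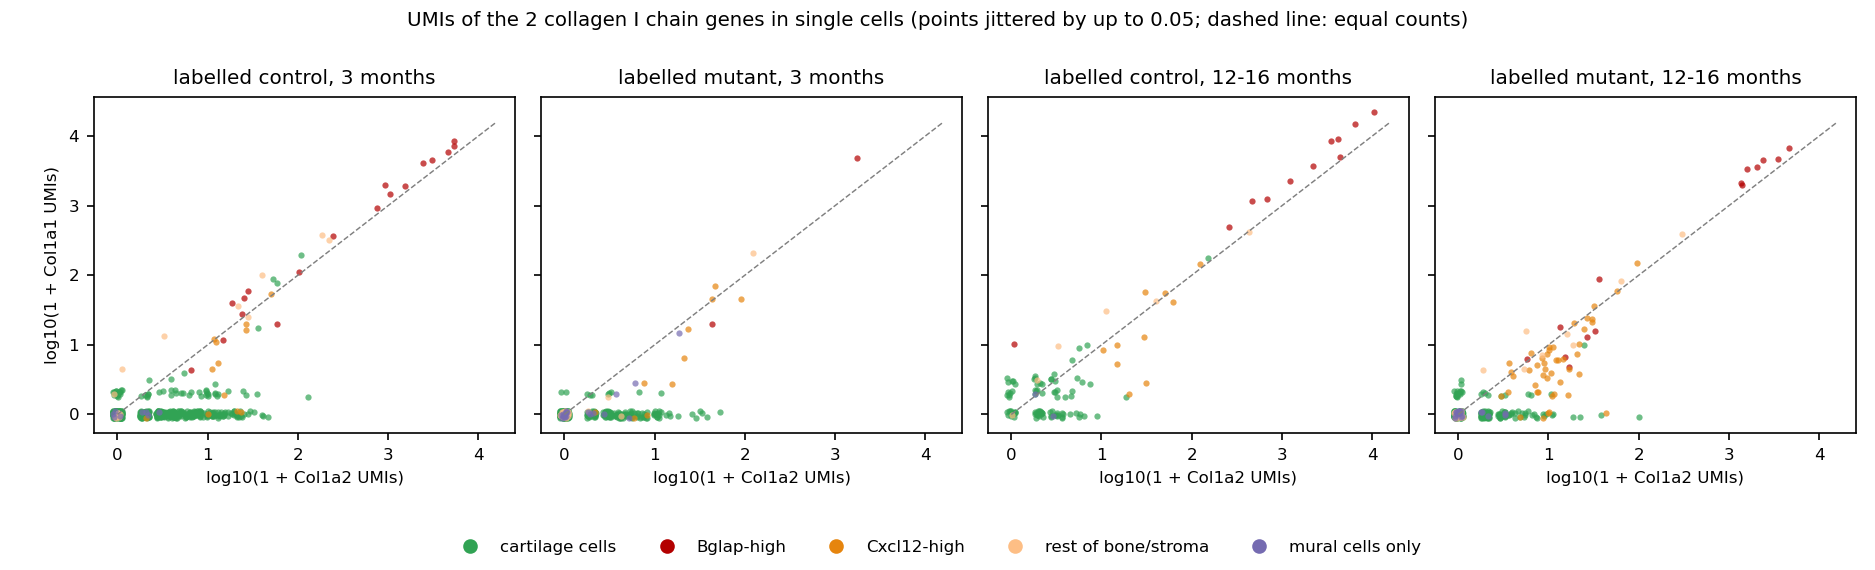
UMIs of Col1a1 against those of Col1a2 in single cells, 1 panel per library, both as log10 of the count plus 1, with cells colored by group and a dashed line at equal counts. Bone/stroma cells run along the line and above it at high counts, while most cartilage cells have 0 Col1a1 and lie along the horizontal axis. A few cartilage cells lie near the line or above it, such as the one highest in Col1a2, with 169 Col1a2 and 177 Col1a1.

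Free RNA in the droplets can give UMIs in cells that do not express a gene, and several values bear on the low counts. Cells with Ptprc and neither Sox9 nor Runx2 should make no collagen I: a Col1a1 UMI was found in 0 of 12, 1 of 19 and 0 of 23 of them in the libraries that held any (both younger ones and the older mutant-labelled one), at median depths of 1182.5, 9359 and 5308 UMIs. With 3 counts taken as the limit for a count of 0, the 0 of 12 cells allow a share of up to 25%. In cartilage cells the share was 9.96% (56 of 562), 2.65% (10 of 377) and 10.1% (26 of 258) in these libraries at median depths of 12638.5, 13677 and 8670.5 UMIs, and 2.15%, 0% and 1.58% after thinning every cell to 2000 UMIs. In the older control-labelled library, 41 of 89 cartilage cells (46.1%, or 9.41% thinned) had a Col1a1 UMI, but so did 9 of the 17 cells outside all groups at a median depth of 1526 UMIs. The part of free RNA in that cartilage share was not tested, and no difference is read from it.
The ratio of the chains was also taken. Cartilage cells without Runx2 had 0.0264, 0.0147, 0.496 and 0.0943 Col1a1 UMIs per Col1a2 UMI, while barcodes that failed the filters had 1.85, 1.55, 1.44 and 1.76. The ratio in these cartilage cells was below that of the failed barcodes in every library. Of the failed barcodes, however, 14, 1, 4 and 6 had at least 10 UMIs of Bglap and Bglap2, so they do not stand for free RNA alone. The comparison therefore cannot show the part of free RNA in the counts of the cartilage cells, which was not tested.

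Within cartilage of the control-labelled libraries, most Col1a1 was in a few cells with Runx2, whereas 9 of the 10 and 25 of the 36 UMIs of the mutant-labelled libraries were in cells without it. In the younger control-labelled library, 4 of 562 cells had at least 10 Col1a1 UMIs, all 4 with Runx2, and held 380 of the 437 UMIs. The highest had 206, 90 and 69, beside 68, 15 and 0 Bglap UMIs. In the older control-labelled library 1 such cell, with 177 of 255 UMIs, was found, and the libraries labelled mutant had 0. That 1 cell had 71954 UMIs over 7654 genes, among them 27 Sox9, 109 Acan, 1464 Col2a1, 16 Runx2 and 0 Bglap, and it was high in all members: 177 Col1a1, 169 Col1a2, 432 Col3a1, 46 Col5a1 and 169 Col5a2. It held 432 of the 433 Col3a1 UMIs of its library. Collagen II was at 4096, 4712, 4215 and 4746 CPM in cartilage cells, far above every member, and the marker lists for endothelial and immune cells summed to at most 3.59 and 7.64 CPM there. The bone and marrow stroma list summed to 1099, 2261, 417 and 1293 CPM there. The fibroblast list summed to 10477, 4615, 12807 and 12725 CPM, nearly all from Dcn and Gsn, genes that chondrocytes also express, and the tendon list to between 54.5 and 85.6 CPM, and the part of such cells in the members' level was not tested.

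Col5a1 and Col5a2 were found in both tissues. Col5a1 was at 53.9 (49.0–59.1), 42.1 (37.0–47.7), 66.5 (53.3–82.0) and 46.8 (39.2–55.4) CPM in cartilage cells and at 448, 69.6, 432 and 334 CPM in bone/stroma cells. The ratio of bone/stroma to cartilage was 8.33, 1.65, 6.50 and 7.14, with an interval above 1 in each library (1.23–2.20 in the younger mutant-labelled one).
Col5a2 was at 182, 104, 251 and 123 CPM in cartilage cells and at 1065, 106, 1647 and 1169 CPM in bone/stroma cells, which gave ratios of 5.86, 1.01 (0.804–1.26), 6.57 and 9.54. Because cartilage cells were many, they held 55.1%, 78.1%, 21.4% and 28.5% of the Col5a1 UMIs and 63.0%, 83.0%, 21.3% and 23.0% of the Col5a2 UMIs of their libraries. At 3 months 50% of the Col5a1 UMIs lay in 28 and 33 cells and at 12–16 months in 5 and 10, which is still more cells than for Col1a1. Col5a1 had fewer UMIs than Col5a2 in every library, both in cartilage cells (0.296, 0.404, 0.265 and 0.382 per Col5a2 UMI) and in Bglap-high cells (0.342, 0.295, 0.213 and 0.236). Cxcl12-high cells had a higher ratio of 0.615, 0.814, 0.671 and 0.386, with intervals that overlapped those of Bglap-high cells in the younger libraries (0.383–0.974 against 0.296–0.395 labelled control) and lay above them in the older ones. The order was not kept in bone/stroma cells high in neither Bglap nor Cxcl12. Their ratio was 1.71 (1.13–2.62), 3 (0.909–12.8), 0.857 (0.534–1.37) and 0.88 (0.573–1.35), from 65, 12, 36 and 44 Col5a1 UMIs.

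**Figure D3:**
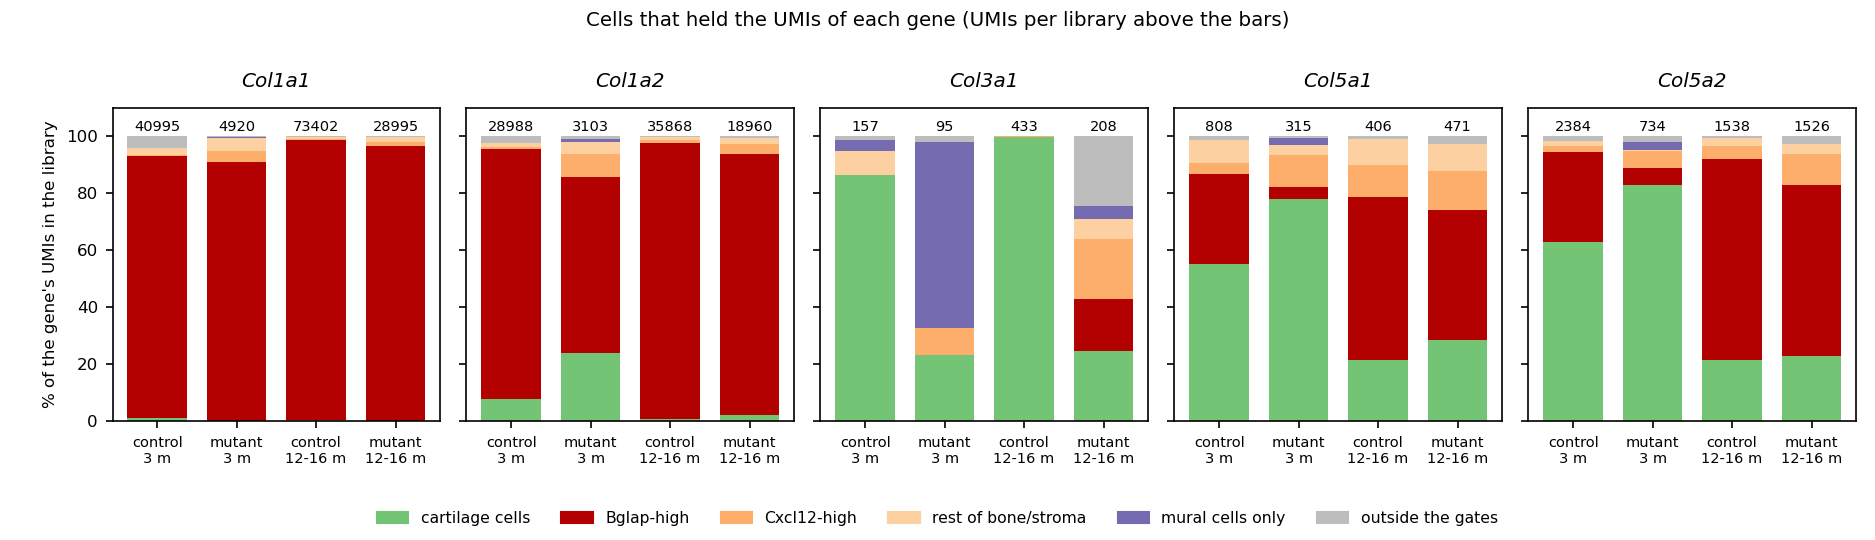
Share of each gene's UMIs (%) that lay in each group of cells, 1 bar per library, with the UMIs of the library above the bar; mural cells only are mural cells outside the bone/stroma group. Bglap-high cells hold from 90.9% to 98.4% of the Col1a1 UMIs, whereas Col5a1, Col5a2 and most bars of Col3a1 have large shares in cartilage cells.

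Col3a1 was rare and lay in few cells. There were 157, 95, 433 and 208 UMIs of it in all passing cells, in 47, 17, 2 and 33 cells. Bglap-high cells, which were full of collagen I, had 0 Col3a1 UMIs in 18, 2 and 11 cells of the first 3 libraries, and 38 UMIs in 2 of 14 cells of the older mutant-labelled library. At 0 UMIs the limit, taken as 3 UMIs, was 6.36, 81.4 and 7.16 CPM.
Mural cells, the smooth muscle cells and pericytes of vessel walls, had 19 UMIs at 168 CPM (101–262) over 10 cells, 62 UMIs at 274 CPM (210–351) over 19 cells, 0 UMIs over 3 cells and 28 UMIs at 136 CPM (90.7–197) over 25 cells. Their level exceeded that of cartilage cells by 10.2-fold (5.95–16.5), 72.7-fold (44.1–124) and 7.66-fold (4.65–12.4) in the libraries with at least 5 mural cells. The values rest on few cells: in the younger mutant-labelled library 41 and 21 of the 62 UMIs came from 2 cells, while in the younger control-labelled library 6 of 10 mural cells had a UMI. The 13 Col3a1 UMIs of bone/stroma cells in the younger control-labelled library came from 2 cells that were also mural. Mural cells outside the bone/stroma group had 6 Col3a1 UMIs at 63.2 CPM (23.2–138) over 8 cells, 62 over 19, 0 over 2 and 9 at 57.8 CPM (26.4–110) over 19. Of collagen I, mural cells had 1, 18, 2 and 5 Col1a1 and 5, 36, 23 and 14 Col1a2 UMIs, of which 0, 18, 1 and 0, and 5, 36, 3 and 7, were in cells outside the bone/stroma group. The bone and marrow stroma list summed to 212, 115, 13012 and 1900 CPM in all mural cells.
Cartilage cells held 86.6%, 23.2%, 99.8% and 24.5% of the Col3a1 UMIs. In the older control-labelled library these were the 432 UMIs of the cell described above, without which the cartilage level is 0 CPM in place of 330. In the other libraries 40 of 562, 11 of 377 and 12 of 258 cartilage cells had a UMI. Of the 208 UMIs of the older mutant-labelled library, 51 lay in cartilage cells, 38 in Bglap-high cells, 44 in 12 of the 45 Cxcl12-high cells and 51 in 3 of the 61 cells outside all groups, of which 1 cell of 7216 UMIs with 59 Col1a1, 94 Col1a2 and 15 Col5a2 held 31.

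The comparison of the labels asks whether the loss of Nf1 in this lineage goes with a different collagen output. Among younger bone/stroma cells, collagens I and V were lower in the library labelled mutant. Col1a1 was 8.67-fold (8.42–8.94) lower, Col1a2 12.4-fold (11.9–12.9), Col5a1 6.44-fold (4.89–8.62) and Col5a2 10.1-fold (8.12–12.7), while the 13 against 9 Col3a1 UMIs gave a ratio of 0.634 (0.239–1.60), with an interval that covers 1. Of the 4 members with at least 50 UMIs over both libraries, 4 were at least 2-fold lower and 0 at least 2-fold higher, beside 12.8% of the 5592 genes counted being lower and 20.7% higher; their median log2 ratio was -3.23, against 0.28 for all genes.
The cells of the group differed in kind, however. Cells with Ptprc made up 23 of the 39 and held 0 Col1a1, and there were 2 Bglap-high cells against 18. Without the Ptprc+ cells, a choice made after seeing the data, 44 and 16 cells were left and the ratios were 0.525 (0.509–0.540) for Col1a1, 0.367 for Col1a2, 2.88 (1.09–7.29) for Col3a1, 0.706 (0.528–0.930) for Col5a1 and 0.451 for Col5a2, so that the difference for Col1a1 was 1.91-fold in place of 8.67-fold and Col3a1 was on the other side of 1. Of the Col1a1 UMIs of all 39 cells, 4455 of 4891 were from 1 cell, without which the level was 520 CPM in place of 5674. That cell had no Ptprc UMI and stayed among the 16. The ratio without both it and the Ptprc+ cells was not computed. With 1 library each, a different make-up of the sorted cells and a lower level per cell cannot be told apart.

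Cxcl12-high cells, which were present in similar number (12 and 10) at 3 months, went the other way. Col1a1 was 2.14-fold (1.69–2.72) higher and Col1a2 1.56-fold (1.29–1.88) higher in the library labelled mutant, Col5a1 was at a ratio of 1.42 (0.852–2.36), Col5a2 at 1.07 (0.698–1.64), and Col3a1, with 9 against 0 UMIs, was at least 3.89-fold higher when the 0 is set at 3 UMIs (lower exact limit 2.56). Without the highest cell of each, the Col1a1 levels were 483 CPM labelled control and 1112 CPM labelled mutant, and the Col3a1 bound fell to 1.77 with a lower limit of 0.877. The intervals of both collagen V genes cover 1.
In the same cells at 12–16 months Col1a1 had a ratio of 0.576 (0.499–0.664), Col1a2 of 0.796 (0.701–0.905), Col5a1 of 0.600 (0.405–0.894) and Col5a2 of 1.04 (0.786–1.40) over 45 against 10 cells, and Col3a1 had 44 UMIs against 1, a ratio of 19.4 (3.30–783). Of the 10 older control-labelled cells, 1 had a Ptprc UMI and 2 were called doublets, and the 5 immune markers summed to 3279 CPM in these cells, of which S100a8, found in 1 cell, made up 2975 CPM, against 6.49, 25.2 and 8.93 CPM in the younger control-labelled, younger mutant-labelled and older mutant-labelled Cxcl12-high cells. Without the Ptprc+ cell the ratio was 0.497 (0.430–0.574) for Col1a1 and 0.716 (0.628–0.817) for Col1a2, and without the doublets it was 0.563 (0.485–0.655) and 0.776 (0.678–0.889). Without the highest cell of each library it was 0.667 (0.556–0.802) for Col1a1, but 0.936 (0.806–1.09) for Col1a2 and 0.707 (0.450–1.13) for Col5a1, with intervals that cover 1. Few cells weigh on the 3-month values too. Of the 190 Col1a1 UMIs labelled mutant, 71 and 46 lay in cells with 20 and 32 Cxcl12 UMIs, and 48 in a cell with 490. Collagen I was thus higher with the label mutant at 3 months and lower at 12–16 months in Cxcl12-high cells, a difference between ages that was not tested. A different make-up of these cells and a different level per cell cannot be told apart.

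At 12–16 months the bone/stroma cells labelled mutant had less collagen I as well. The ratio was 0.298 (0.294–0.302) for Col1a1, 0.390 (0.384–0.397) for Col1a2, 0.774 (0.661–0.907) for Col5a1 and 0.710 (0.654–0.771) for Col5a2, and Col3a1 was higher with 97 UMIs against 1, a ratio of 73.0 with a counting interval that starts at 12.8. Among the 5 members, 2 were at least 2-fold lower and 1 at least 2-fold higher, beside 2.24% and 11.2% of 5529 genes, with a median log2 ratio of -0.49 against 0.29. The make-up of the group differed at this age too. Bglap-high cells were 14 of 83 labelled mutant and 11 of 27 labelled control, and Cxcl12-high cells numbered 45 and 10. In these sums a different make-up and a different level per cell cannot be told apart.
In Bglap-high cells alone (14 against 11), Col1a1 had a ratio of 0.514 and Col1a2 of 0.666, while Col5a1 was at 1.24 (1.02–1.49) and Col5a2 at 1.12 (1.02–1.22). The bone and marrow stroma list differed as well, at 42442 CPM labelled mutant and 76066 CPM labelled control. A different make-up and a different level per cell cannot be told apart within the Bglap-high cells either. Single cells overlapped widely there: Col1a1 lay between 357 and 175526 CPM, with a median of 38258, in the cells labelled mutant and between 1649 and 227314 CPM, with a median of 156628, in those labelled control. Without Ptprc+ cells the bone/stroma ratios at this age were 0.284, 0.373, 0.748 and 0.685 for Col1a1, Col1a2, Col5a1 and Col5a2.

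In cartilage cells all members were lower in the libraries labelled mutant at both ages when all cells were summed. At 3 months the ratio was 0.0323 (0.0154–0.06005) for Col1a1, 0.467 (0.429–0.508) for Col1a2, 0.229 (0.139–0.360) for Col3a1, 0.781 (0.666–0.915) for Col5a1 and 0.573 (0.520–0.630) for Col5a2, and for Col5a1 the sign turned with the mean of single-cell CPM (log2 ratio 0.032). Of the 5, 3 were at least 2-fold lower and 0 higher, beside 5.41% and 8.68% of 11463 genes, and the median log2 ratio was -1.10 against 0.07.
The share of cartilage cells with Runx2, the transcription factor of hypertrophic chondrocytes and osteoblasts, also differed, with 94 of 562 in the library labelled control and 193 of 377 in that labelled mutant, and these cells are deeper, at median UMIs of 17649 and 17832 against 11984 and 10296. In cells without Runx2 the ratio was 1.17 (1.07–1.29) for Col1a2, 1.57 (1.31–1.88) for Col5a1 and 1.27 (1.15–1.41) for Col5a2, with levels of 248 and 291, 56.7 and 89.1, and 196 and 249 CPM. All 3 were on the other side of 1 from the summed value, and Col1a1 (0.654, 0.280–1.36) and Col3a1 (0.722, 0.432–1.16) had intervals that cover 1.
In cells with Runx2 the ratio was 0.0980 (0.0805–0.119) for Col1a2, 0.357 (0.251–0.504) for Col5a1 and 0.170 (0.132–0.219) for Col5a2, with levels of 349 and 34.2, 44.2 and 15.7, and 135 and 22.9 CPM. Col1a1 had 395 UMIs in the library labelled control, of which 206 came from 1 cell, and 1 UMI over 193 cells in that labelled mutant. Col3a1, with 43 against 0 UMIs, was at least 28.9-fold lower when the 0 is set at 3 UMIs (lower exact limit 22.5). Of these 43 UMIs, 27 came from 1 cell of 18515 UMIs, which also held 127 of the 647 Col1a2 UMIs labelled control. Single other Runx2+ cells held 119, 54 and 53 of them. The control-labelled sums of these genes thus rest in large part on few cells, which the counting intervals do not cover. The lower sums at 3 months thus lay in the Runx2+ cells, which were also the larger share of the cells labelled mutant.

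At 12–16 months the same split was made, and it was like that of 3 months for some members only. Over all cartilage cells the ratio was 0.0645 (0.0442–0.0917) for Col1a1, 0.580 (0.501–0.672) for Col1a2, 0.0539 (0.0395–0.0722) for Col3a1, 0.704 (0.533–0.933) for Col5a1 and 0.489 (0.420–0.570) for Col5a2. Of the 5, 3 were at least 2-fold lower and 0 higher, beside 1.9% and 2.51% of 8471 genes, with a median log2 ratio of -1.03 against -0.01. Without the highest cell of each library the log2 ratio of Col3a1 turned from -4.21 to 1.67, a bound against 0 UMIs set at 3, that of Col5a1 turned to 0.34, and the median went to -0.19.
In cells without Runx2 (65 labelled control and 176 labelled mutant) Col1a2 was at 1.06 (0.852–1.33), Col5a1 at 1.32 (0.869–2.04) and Col5a2 at 1.16 (0.920–1.48), with intervals that cover 1. Col1a1 had 60 UMIs among 697157 labelled control and 25 among 1439779 labelled mutant in these cells. Of the 60, 8, 8 and 5 lay in cells of only 1070, 1683 and 1365 UMIs, beside 9, 3 and 12 Bglap UMIs. The part of free RNA in these 60 UMIs was not tested, and no difference is read from them. Col3a1 had 0 and 19 UMIs there. Cells with Runx2 (24 and 82) gave 0.321, 0.367 and 0.204 for Col1a2, Col5a1 and Col5a2. The Runx2+ group labelled control holds the cell of 71954 UMIs. Without this cell its levels went from 349 to 81.6 CPM for Col1a2, from 90.0 to 16.7 for Col5a1 and from 371 to 108 for Col5a2. The levels labelled mutant were 48.9, 23.4 and 43.3 CPM, also without the highest cell. That cell of 12654 UMIs held 90 of 159 Col1a2, 14 of 47 Col5a1 and 47 of 108 Col5a2 UMIs, among 1422860 UMIs of the 82 cells. Without these cells, Col5a1 was lower labelled control (16.7 CPM) than labelled mutant (23.4 CPM), so its direction in the Runx2+ cells turned. The direction for Col1a2 depends on which of these cells are left out. Over all cartilage cells without the highest cell of each library, Col5a1 was at 33.2 CPM labelled control and 42.1 CPM labelled mutant, and the direction turned.

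Age was compared within each label. Labelled control, Col1a1 in bone/stroma cells was 2.04-fold (2.01–2.06), Col1a2 1.47-fold (1.45 at the lower end) and Col5a2 1.55-fold (1.41–1.69) higher at 12–16 than at 3 months and Col5a1 had a ratio of 0.963 (0.825–1.12), while Col3a1 had 1 UMI against 13. Of 4 members, 1 was at least 2-fold higher and 0 lower, beside 3.2% and 4.5% of 4663 genes, with a median log2 ratio of 0.59 against -0.10. Without the Bglap-high cells the log2 ratio of Col1a1 turned from 1.03 to -0.31 and the median over all 5 members went from 0.56 to -0.19. Bone/stroma cells high in neither Bglap nor Cxcl12 had a Col1a1 ratio of 0.739 (0.660–0.827) over 6 older and 15 younger cells. Bglap-high cells alone gave 2.15, 1.53, 1.63 and 1.02 for Col1a1, Col1a2, Col5a2 and Col5a1, and Cxcl12-high cells 2.35 (1.90–2.93), 1.39 (1.17–1.65), 1.05 (0.724–1.54) and 1.15 (0.717–1.86). Without the highest Cxcl12-high cell of each library the ratio was 2.27 (1.71–3.06) for Col1a1 and 1.17 (0.956–1.43) for Col1a2, the latter with an interval that covers 1. The older Cxcl12-high cells here are the 10 with a Ptprc+ cell and called doublets described above.
Labelled mutant, bone/stroma cells had more of all 5 members at the older age, by 5.26-fold for Col1a1, 7.11-fold for Col1a2, 9.59-fold for Col3a1, 4.80-fold for Col5a1 and 11.1-fold for Col5a2. These are 5 of 5 past 2-fold and 0 lower, beside 16.8% and 15.4% of 6426 genes, with a median log2 ratio of 2.83 against -0.02. Without Ptprc+ cells the same ratios were 1.25, 1.70, 2.29, 1.15 and 2.64. Of the 4891 Col1a1 UMIs of the 16 younger cells then left, however, 4455 lay in the 1 cell called a doublet. With Ptprc+ cells kept, the median log2 ratio was 4.11 without doublets and 4.05 without the highest cell. Ratios without both this cell and the Ptprc+ cells were not computed. Cxcl12-high cells labelled mutant had less Col1a1 at the older age (0.632, 0.532–0.753), less Col1a2 (0.709, 0.614–0.823) and less Col5a1 (0.486, 0.317–0.756), with Col5a2 at 1.03 (0.730–1.47) and Col3a1 at 1.30 (0.626–3.03).

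The summed Col1a1 level of cartilage cells was higher at 12–16 months under both labels, by 3.68-fold (3.15–4.31) labelled control and 7.35-fold (3.57–16.6) labelled mutant, from totals of 437 and 255 UMIs and of 10 and 36 UMIs. Without the highest cell of each, the levels were 28.2 and 63.1 CPM labelled control and 1.54 and 9.45 CPM labelled mutant. In the older control-labelled library 9 of the 17 cells outside all groups also had a Col1a1 UMI, and the part of free RNA in the difference was not tested. Col1a2 had ratios of 0.944 (0.839–1.06) and 1.17 (1.04–1.32), Col5a1 of 1.23 (0.970–1.56) and 1.11 (0.894–1.38) and Col5a2 of 1.38 (1.22–1.55) and 1.18 (1.03–1.34). Col3a1 had a ratio of 20.1 labelled control, which rests on 1 cell, and of 4.73 (2.82–8.20) labelled mutant, where 29 of 51 UMIs came from 1 cell. Without the highest cell of each library the log2 ratio labelled control turned to -2.45 for Col3a1, with the 0 set at 3 UMIs, and to -0.41 for Col5a2, which was at -0.34 with the mean of single-cell CPM. Labelled mutant, Col1a2 turned to -0.019 without the highest cells and Col5a2 to -0.024 with the mean of single-cell CPM. Labelled control, 2 of 5 members were at least 2-fold higher and 0 lower, beside 4.76% and 3.53% of 10559 genes, and labelled mutant 1 of 4 and 0, beside 3.25% and 4.72% of 10529 genes. The median log2 ratios were 0.46 and 0.23, against 0.07 and -0.04 for all genes, and the first turned to -0.67 without the highest cells. In cells without Runx2, Col1a2 was lower at the older age under both labels, at 0.69998 (0.577–0.843) and 0.632 (0.545–0.731), as was Col5a2, at 0.740 (0.599–0.907) and 0.677 (0.579–0.790).

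Genes that work with these collagens were followed as 3 lists. The first holds 11 other collagen genes, among them those of the cartilage collagens II and XI, the bone collagen XXIV and the collagens that coat fibrils. It also holds genes of collagen VI (Col6a1, Col6a2 and Col6a3), which is not a fibrillar collagen. In cartilage cells 3 of 11 were at least 2-fold higher and 1 lower at 3 months, and 0 and 0 of 9 at 12–16 months, beside 8.68% and 5.41% of all genes counted at 3 months and 2.51% and 1.9% at 12–16 months. Among bone/stroma cells 9 of 9 were at least 2-fold lower at 3 months, and 3 of 9 were higher and 2 lower at 12–16 months, beside 20.7% higher and 12.8% lower of all genes at 3 months and 11.2% and 2.24% at 12–16 months. The same shares of all genes stand beside the other lists. The medians were 0.20 and 0.13 in cartilage cells and -2.40 and 0.65 in bone/stroma cells. Largest in the same direction at both ages were Col2a1 (log2 ratio -3.86 and -1.59), Col11a1 (-3.87 and -1.13), Col11a2 (-3.62 and -0.75) and Col24a1 (-1.40 and -0.78), all in bone/stroma cells. Few cells weigh on Col2a1: of its 560 UMIs in older control-labelled bone/stroma cells, 361 lay in the Bglap-high cell of 132228 UMIs. The younger control-labelled ones had 520, of which 172 and 105 lay in single Bglap-high cells. Its ratio without these cells was not computed.
The second list holds 20 genes of collagen folding, processing and crosslinking, such as Serpinh1, the collagen chaperone. It had 2 of 20 higher and 5 lower in cartilage cells at 3 months, 1 and 1 of 17 at 12–16 months, 0 and 12 of 14 in bone/stroma cells at 3 months and 1 and 0 of 17 at 12–16 months, with medians of -0.31, 0.05, -2.22 and 0.16. In cartilage cells Loxl2, a crosslinking enzyme, had log2 ratios of -1.38 and -1.42, whereas Lox, another, had 1.65 and 0.62 and Bmp1, which trims the C-terminal end of procollagens, 1.05 and 0.64. Bone/stroma cells gave -2.58 and -0.63 for Lox.
The third list holds 15 fibril regulators and collagen-binding proteins. It had 0 of 14 higher and 2 lower in cartilage cells at 3 months, 1 and 0 of 14 at 12–16 months, 0 and 8 of 10 in bone/stroma cells at 3 months, and 0 and 0 of 10 at 12–16 months, with medians of -0.31, 0.05, -1.79 and 0.27. Dcn (decorin), Sparc and Lum (lumican), which bind collagen fibrils, had log2 ratios of -3.81 and -0.95, -3.64 and -0.94, and -4.81 and -0.77 in bone/stroma cells, and Ogn (osteoglycin) had -0.85 and -0.84 in cartilage cells.
With age, bone/stroma cells labelled mutant had 9 of 9, 13 of 15 and 8 of 11 genes of the 3 lists at least 2-fold higher and 0 lower in each, and those labelled control had 2 higher and 2 lower of 8, 0 and 1 of 16, and 0 and 1 of 10, beside 16.8% of all genes higher and 15.4% lower labelled mutant and 3.2% and 4.5% labelled control. In cartilage cells it was 1 and 1 of 10, 1 and 3 of 20, and 4 and 0 of 14 labelled control, and 0 and 1 of 9, 2 and 0 of 17, and 5 and 0 of 14 labelled mutant, beside 4.76% and 3.53% labelled control and 3.25% and 4.72% labelled mutant. The medians of the lists followed the members in the bone/stroma cells labelled mutant, at 2.50, 2.22 and 1.99, and were between -0.24 and 0.49 elsewhere. Bone/stroma counts carry the same difference in Ptprc+ cells as the members do.

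Likeness of pattern was taken as the Pearson correlation of log2(CPM + 10) over 11 profiles, which are the 3 cell groups of each library with at least 5 cells, among 11577 genes. It is a description, since the profiles of a library share its depth and those of a group its cells. Col1a1 was most like Col1a2 (0.980), followed by Ptprz1 (0.977), Pcdh7 (0.977), Olfml3 (0.972) and Enpp6 (0.972). Nearest to Col1a2 were Pcdh7 (0.988), Fat3 (0.985), Dapk2 (0.985), Btla (0.984) and Nav3 (0.984).
Both collagen V genes were nearest to each other (0.980). Col5a1 was followed by Bglap (0.973), Fkbp11 (0.968), Col1a2 (0.966) and Metrnl (0.966), and Col5a2 by Ctsk (0.959), Galnt5 (0.958), Metrnl (0.954) and Pycr1 (0.952). Col3a1 stood apart: its correlation with the other members was between -0.432 and -0.305, and its nearest genes, Vps26a (0.870), Hnrnph2, Atp6v1h (0.859), Pnrc2 (0.854) and Chmp1b (0.841), were less near than the 5 named for any other member. Its profiles rest on few cells, however. All 432 UMIs of older control-labelled cartilage lay in 1 cell, and 2 cells held 41 and 21 of the 62 UMIs of younger mutant-labelled mural cells. Its likeness without such cells was not tested.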

How the data were processed

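Mouse spine cells were profiled with 10x 3′ chemistry in 4 libraries, 1 per condition. UMI counts for each gene in each barcode were deposited by the authors after Cell Ranger 8.0.0, run against mm10 extended by tdTomato. The barcodes are those that this tool called as cells, and the whole-number counts were read as not corrected for free RNA. The SoupX correction, integration and clustering of the study were not repeated, and the authors' cell annotation was not used here. Collagen members, cell groups and gene lists were chosen with earlier results of these data known. The filters of the study were kept (over 750 UMIs, over 500 genes, mitochondrial share under 7%), which left from 2154537 to 9429264 UMIs per library.

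UMIs were summed per library and cell group and scaled to CPM in Python 3.11.15 (pandas 2.3.3, numpy 2.4.6, scipy 1.17.1). Cells outside the cartilage, bone/stroma and mural groups were counted as outside all groups. Exact Poisson, conditional binomial and Clopper-Pearson 95% intervals were computed. A fold against 0 UMIs was set against 3 UMIs, folds were left out where neither count exceeded 3 and for groups under 5 cells. List and background counts used genes with at least 50 UMIs over both libraries and a 2-fold threshold. With 1 library per condition no test was made. Cells were thinned to 2000 UMIs for shares. Doublets were called by Scrublet (scanpy 1.11.5) at an expected rate of 6%, which marked 9, 5, 8 and 4 cells (3-month control, 3-month mutant, 12–16-month control, 12–16-month mutant), and were kept.

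Genes named are the members, up to 4 genes of each list with the largest log2 ratio in one direction at both ages, and the 5 genes most like each member. Marker lists covered cartilage, bone and marrow stroma, mural, immune, endothelial, fibroblast, tendon and Schwann cells; the Schwann list summed to at most 10.3 CPM in the cartilage, bone/stroma and mural cells, and the endothelial list to at most 145 CPM, in the 3-month bone/stroma cells labelled mutant. Alternatives were other scalings (TMM of edgeR 4.0.16 in R 4.3.3), cell filters, gates, thresholds, doublets, single cells and free RNA. Added after seeing the data were bone/stroma cells with Ptprc left out and the alternatives in Cxcl12-high and mural cells. Scripts were tested on simulated data. Coordinates and coding sequences came from GENCODE on GRCm38, promoters from RefSeq.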

Additional observations from a re-analysis of the deposited data

Results flagged for a closer look

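Cxcl12-high bone/stroma cells had opposite directions at the 2 ages. Col1a1 was at 2.14 times the control-labelled level in the mutant-labelled library at 3 months and at 0.576 times at 12–16 months, and Col1a2 was at 1.56 and 0.796 times. Each ratio rests on 1 library per label, with 12 against 10 cells at 3 months and 10 against 45 at 12–16 months, and the difference between the ages was not tested. A different make-up of the cells and a different level per cell cannot be told apart here. At 12–16 months Col1a1 was at 0.497 times without the Ptprc+ cell, 0.563 times without the called doublets and 0.667 times without the highest cell of each library, and Col1a2 was at 0.716, 0.776 and 0.936 times, the last with an interval that covers 1. The 5 immune markers summed to 3279 CPM in the control-labelled and 8.93 CPM in the mutant-labelled Cxcl12-high cells of that age.

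Barcodes that failed the filters on UMIs, genes or mitochondrial share and enter no comparison also held collagen I. Col1a1 was at 27184 CPM over 205 barcodes of the younger control-labelled library, 1685 CPM over 58 of the younger mutant-labelled one, 28802 CPM over 28 of the older control-labelled one and 20592 CPM over 124 of the older mutant-labelled one. There was no control sample for these barcodes, and the levels are above the limit that a count of 0 allows. Col1a1 was found in 63, 4, 16 and 63 of them, with 2705, 128, 1175 and 786 UMIs in the highest. The part of free RNA in them was not tested.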

How the results depend on the processing

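No paired analysis was possible because each condition has 1 library, and for the same reason no library could be left out. Of 142 alternatives to the member medians and gene shares, 89 stayed within the counting interval of the middle member (gene shares: within 1.5 times), 51 moved beyond it and 2 changed sign; for single genes and shares of cells these were 618, 235 and 13. Leaving Ptprc+ cells out, and the alternatives in Cxcl12-high and mural cells, were chosen after the data were seen. TMM moved all genes by -0.24 (log2) between labels in bone/stroma cells at both ages, by -0.10 in cartilage cells at 3 months and by -0.17 with age in cartilage cells labelled control, and turned no member. The member median (log2, mutant over control) in cartilage cells at 3 months went from -1.10 to -0.71 with the mean of single-cell CPM and to -0.94 with looser gates or without cells high in Bglap. For bone/stroma cells at 3 months it went from -3.12 over all 5 members to -3.24 when scaled without collagens, -3.36 with TMM, -2.06 with mean single-cell CPM, -3.97 without doublets, -3.19 with no filter, -3.77 without the highest cell, -2.31 without Bglap-high cells and -0.93 without Ptprc+ cells. At 12–16 months it went in cartilage cells from -1.03 to -0.54 with mean single-cell CPM and -0.19 without the highest cell, and in bone/stroma cells from -0.49 to -0.66 without collagens, -0.74 with TMM or mean single-cell CPM and -0.70 without Bglap-high cells. With age in cells labelled control, it went in cartilage cells from 0.46 to 0.22 with mean single-cell CPM and to -0.67 without the highest cell, and in bone/stroma cells from 0.56 to 0.67 without collagens, 0.59 with TMM, 0.63 with mean single-cell CPM, 0.69 without doublets, 0.45 with no filter, 0.60 with stricter gates, 0.43 without the highest cell, 0.74 without Ptprc+ cells and -0.19 without Bglap-high cells, where Col1a1 also turned, to -0.31. Labelled mutant, the older over younger median of bone/stroma cells went from 2.83 to 2.90 without collagens, 1.40 with mean single-cell CPM, 4.11 without doublets, 2.99 with stricter gates, 4.05 without the highest cell, 1.79 without Bglap-high cells and 0.76 without Ptprc+ cells.

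Turned by mean single-cell CPM were Col5a1 in cartilage cells between labels (0.032 at 3 months, 0.34 at 12–16 months), Col3a1 over all cells at 12–16 months (0.23) and Col5a2 in cartilage cells with age (-0.34 labelled control, -0.024 labelled mutant). Turned without the highest cell were, at 12–16 months between labels, Col3a1 over all cells (6.39) and in cartilage cells (1.67) and Col5a1 in cartilage cells (0.34), and with age, Col3a1 over all cells (-4.85) and in cartilage cells (-2.45) and Col5a2 in cartilage cells (-0.41) labelled control and Col1a2 in cartilage cells labelled mutant (-0.019). The cause was not tested where an alternative does not show it by fewer cells.

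The share of all genes past the fold in cartilage cells was, with a minimum of 1 UMI and at 1.5-fold, 33.1% and 35.8% at 3 months, 27.0% and 16.5% at 12–16 months, 38.7% and 24.1% with age labelled control and 30.1% and 23.8% labelled mutant. In bone/stroma cells it was 34.0% and 34.2% at 12–16 months and 31.2% and 23.7% with age labelled control, and at 1.5-fold 55.3% at 3 months and 52.9% with age labelled mutant. A minimum of 20 UMIs gave 8.15% in cartilage cells at 12–16 months and 12.0% in bone/stroma cells with age labelled control, and a minimum of 200 gave 2.94% and 4.07% in cartilage cells at 12–16 months and with age labelled control. Few cells and depth both limit the bone/stroma and mural values.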

Other observations

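Cells outside all groups held collagen in a few cases. In the younger control-labelled library 1 such cell of 7680 UMIs had 1717 of the 1718 Col1a1 UMIs and 608 of the 628 Col1a2 UMIs found in them. In the older mutant-labelled library a cell of 3375 UMIs had 19 Col3a1, 9 Col5a2 and 3 Col5a1 but 0 Col1a1 and 1 Col1a2 UMIs, with 0 Runx2, 0 Sox9, 0 Rgs5 and 0 Ptprc.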
